A study of Mus musculus with 4 samples.

Results

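The unfolded protein response and the machinery it controls were followed through 45 mouse genes: chaperones of the endoplasmic reticulum (ER), enzymes that fold proteins there, the channel and peptidase that take proteins in, the pathway that removes misfolded ones, and the sensors and transcription factors of ER stress. The rule takes genes by symbol and uses no measured value, though the list was drawn up with earlier results of these data known. All 45 were found, each in 1 of the 37646 rows that every library lists. By role they formed 5 groups: 11 lumenal chaperones and co-chaperones, 7 disulfide and prolyl isomerases, 11 translocation genes, 9 genes of ER-associated degradation and 7 sensors and factors. The samples were 4 RNA-seq libraries of 1 group, normal controls on the C57BL/6 background with the genotype YFPstopF/+ Cg1Cre/+. In these mice Cre recombinase is expressed from the Ighg1 (Cg1) locus, and YFP stays off until Cre has removed a stop cassette in front of it. They received sheep red blood cells 2 times, 20 days apart, with sampling of the spleen 10 days after the second. Living B220+ YFP+ cells were sorted and are labelled as splenic germinal centre B cells. Since the reporter stays on once Cre has acted, the gate can also hold memory cells and plasma cells that keep B220. Malignant samples of the same project were not analysed here, so no treated or mutant group stands beside these controls.

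Proteins that are secreted or inserted in membranes enter the ER through the SEC61 channel, lose their signal peptide to signal peptidase, and fold with the help of chaperones and disulfide isomerases. Misfolded chains are recognised, moved back to the cytosol and degraded. When unfolded protein builds up, the sensors IRE1 (Ern1), PERK (Eif2ak3) and ATF6 raise this capacity through the factors XBP1, ATF4 and the cleaved form of ATF6. In the B lineage the pathway is best known from plasma cells, which need XBP1 to secrete antibody at high rates, whereas germinal centre B cells mainly divide, mutate their antibody genes and display antibody on their surface.

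The libraries, numbered 1 to 4, held between 13777954 and 14629025 counts each, so that 3 counts, the limit that a count of 0 allows, equal, in CPM (counts scaled to equal library totals), 0.205 to 0.218. This limit covers counting error only. The labels do not say whether each library came from a separate animal, so the spread between libraries may be technical in part. Libraries 1, 2 and 4 were rich in Xist and nearly free of the Y-linked Ddx3y, whereas library 3 had 6 counts of Xist and 1307 of Ddx3y. Library 3 therefore came from male tissue, and sex cannot be told apart from anything else in which this library differs. Mitochondrial genes took 18.1 to 23.3% of counts and immunoglobulin genes 2.35 to 5.48%, with library 3 lowest in both. All 6 B cell markers and all 8 germinal centre markers on lists of such genes exceeded 1 TPM (counts per length, scaled to the same sum in each library) in every library. The same held for 8 of 8 plasma cell markers other than Xbp1, whose summed level ran from 1033 to 1996 TPM, and for 8 of 8 T cell markers, with sums of 174 to 454 TPM.

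The 45 genes were abundant as a group. Every one of them exceeded 1 TPM in every library, against 30.8% of all genes with a known length. All 45 passed the filter on low counts, and of the 11982 genes that did so 10927 exceeded 1 TPM in every library. The median member had a mean of 80.5 TPM, against 13.4 TPM for the median of the 11982 genes that passed the filter on low counts. On the log2(TPM + 1) scale the median member stood at 6.43 ± 0.18 (SD, n = 4 libraries) and the median of all tested genes at 3.83 ± 0.13. Ranked by mean TPM, 2 members fell in the top 1% of tested genes, 15 in the top 5%, 22 in the top 10% and 40 in the upper 50%. Mean levels exceeded 200 TPM for 10 members and 50 TPM for 31. Together the members took 0.989, 1.04, 0.970 and 1.03% of the counts of libraries 1 to 4 (1.01% ± 0.0329). Hspa5, Calr and Hsp90b1 alone took 0.285% ± 0.0185.

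**Figure D1:**
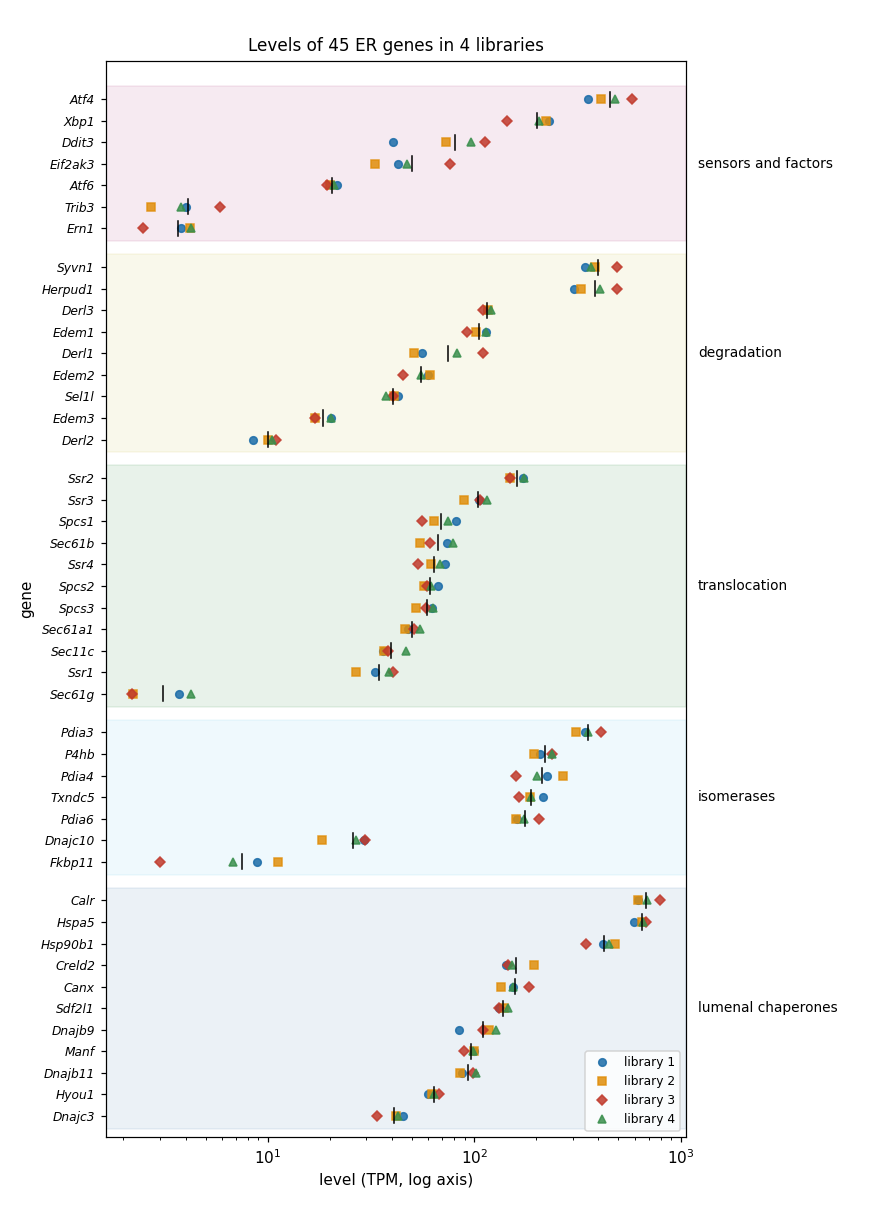
Level of each of the 45 genes in TPM on a log axis, grouped by role, with 1 point per library (4 libraries) and a bar at the mean. Calr and Hspa5 lie at the top near 681 and 647 TPM, and Sec61g, Ern1 and Trib3 at the bottom between 3.10 and 4.11 TPM.

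The groups differed in level, but not every pair did so beyond its spread. The median isomerase stood at 7.55 ± 0.14 on the log2(TPM + 1) scale, the median chaperone at 7.10 ± 0.07, degradation at 6.20 ± 0.31, translocation at 5.93 ± 0.13 and the sensors and factors at 5.58 ± 0.51 (SD, n = 4 for each). Within a library, chaperones exceeded sensors and factors by 1.52 ± 0.52, in 4 of 4 libraries, with a range of 0.78 to 2.0. Isomerases exceeded chaperones by 0.45 ± 0.15, and chaperones exceeded translocation genes by 1.17 ± 0.13. The order of the lower groups was less certain. Degradation minus translocation was 0.28 ± 0.37 (−0.15 to 0.71), and sensors and factors minus translocation was −0.35 ± 0.55 (−0.72 to 0.44). These are differences of medians over small groups of chosen genes and are given without a test.

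Among the lumenal chaperones, 3 genes stood far above the rest. Calr (chr8:84841850-84846934, minus strand) encodes calreticulin, the soluble lectin chaperone that holds newly made glycoproteins, and reached 620.2, 621, 794 and 689.7 TPM in libraries 1 to 4 (681 ± 82.1, mean ± SD, n = 4). Hspa5 (chr2:34771970-34777547, plus strand) encodes BiP, the HSP70 of the ER lumen, and reached 595, 648, 683 and 661 TPM (647 ± 37.04). These 2 genes did not differ beyond their spread, since the log2 ratio of Calr to Hspa5 was 0.07 ± 0.12. Hsp90b1 (chr10:86690209-86705509, minus strand) encodes GRP94, the HSP90 of the ER, which folds integrins and Toll-like receptors, and reached 419.9, 479.6, 349.7 and 451 TPM (425 ± 55.9). It lay below Hspa5 in 4 of 4 libraries, by 0.61 ± 0.24 on the log2 scale, with library 3 lowest. Next, well below Hsp90b1, came Creld2, a stress-induced ER protein, at 159 ± 23.8 TPM and Canx at 157 ± 20.01 TPM. Canx encodes calnexin, the membrane-bound partner of calreticulin. The J-domain co-chaperones that hand substrates to BiP were ordered Dnajb9 (110.1 ± 18.3 TPM), Dnajb11 (93.5 ± 8.21 TPM) and Dnajc3 (41.03 ± 4.90 TPM). Dnajc3 was the lowest of the group, at 45.2, 41.97, 33.96 and 42.95 TPM in libraries 1 to 4. Hyou1, whose product exchanges the nucleotide of BiP, reached 63.5 ± 3.15 TPM. Sdf2l1, whose product works with Dnajb11, had a mean of 137 ± 6.98 TPM, and Manf, a small protein held in the ER and released under stress, 96.8 ± 5.06 TPM. Of the 10 neighbouring pairs in this order, 5 differed by more than the SD of their log2 ratio.

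The isomerases included 5 abundant genes and 2 scarce ones. Pdia3 (chr2:121413775-121438687, plus strand) encodes ERp57, the disulfide isomerase that works with calnexin and calreticulin, and led at 346, 311, 412 and 356 TPM (356 ± 42.01). It exceeded the next, P4hb, in 4 of 4 libraries, by 0.69 ± 0.09 on the log2 scale. P4hb, the classical protein disulfide isomerase, was at 209, 195, 239 and 238 TPM (220.1 ± 21.7). Pdia4 (chr6:47796141-47813430, minus strand), a further disulfide isomerase, was at 226, 269, 159 and 201 TPM (214 ± 45.8). Pdia4 was highest in library 2 and lowest in library 3, and its order against P4hb changed between libraries (log2 ratio of P4hb to Pdia4 0.06 ± 0.45). Txndc5 (189 ± 20.6 TPM) and Pdia6 (176 ± 22.1 TPM), members of the same family, each lay within the spread of the gene above it in this order. Dnajc10, a reductase that opens disulfides before degradation, followed at 26.02 ± 5.31 TPM. Fkbp11 (chr15:98724366-98728198, minus strand), a prolyl isomerase of the ER that is a known marker of antibody-secreting cells, was lowest, at 8.90, 11.2, 3.01 and 6.82 TPM (7.49 ± 3.49).

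The translocation genes form 3 complexes, which were set side by side per length. Of the SEC61 channel, the pore subunit Sec61a1 was at 47.8, 46.1, 50.97 and 54.5 TPM (49.8 ± 3.74). Its small partner Sec61b was at 73.9, 54.9, 60.8 and 78.7 TPM (67.1 ± 11.1), a log2 ratio to Sec61a1 of 0.42 ± 0.19 and above it in 4 of 4 libraries. The other small subunit, Sec61g, was at only 3.72, 2.23, 2.20 and 4.23 TPM (3.10 ± 1.03), or −4.07 ± 0.45 against Sec61a1. The low value of Sec61g is uncertain. It rests on 32 to 66 counts per library, on a union-of-exons length of 2464 bases, and on reads of 50 bases of which several annotated genes hold copies. Of the 50-base stretches in its transcripts, 14.8% also occur in other annotated genes, most often in Gm10177. For Sec61b the share is 17.4%, the highest of the 45 members. How such reads were counted is not stated in the labels.

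The TRAP complex sits beside the channel and helps chosen signal sequences to open it. Its subunits ranged from Ssr2 at 173, 149, 149 and 175 TPM (162 ± 14.2) through Ssr3 at 105, 89.1, 106 and 116 TPM (104 ± 10.95) and Ssr4 at 72.2, 61.9, 53.4 and 68.2 TPM (63.9 ± 8.19) to Ssr1 at 32.9, 26.8, 40.5 and 38.6 TPM (34.7 ± 6.20). Against Ssr1 the log2 ratio was 2.23 ± 0.27 for Ssr2, 1.59 ± 0.15 for Ssr3 and 0.89 ± 0.37 for Ssr4, each above 0 in 4 of 4 libraries. All 3 ratios were lowest in library 3. Signal peptidase cuts the signal sequence off. Its subunits lay closer together: Spcs1 at 81.97, 63.7, 56.03 and 74.9 TPM (69.2 ± 11.5), Spcs2 at 66.5, 57.1, 58.8 and 61.5 TPM (60.99 ± 4.11), Spcs3 at 62.8, 52.5, 58.2 and 63.1 TPM (59.1 ± 4.98) and the catalytic Sec11c at 36.2, 36.5, 38.4 and 46.5 TPM (39.4 ± 4.83). The log2 ratios to Sec11c were 0.80 ± 0.27, 0.63 ± 0.19 and 0.59 ± 0.15 for Spcs1, Spcs2 and Spcs3. The alternative catalytic subunit Sec11a, not a member, had a log2 ratio to Sec11c of −1.03 ± 0.18. The ratios depend on the lengths used, since short and long transcripts are set against each other, and several turn negative when plain counts are compared. Exons of Spcs1 overlap those of Glt8d1 on the opposite strand over 16.3% of its length, and those of Ssr2 overlap Gm10704 over 12.8%. Whether the counting used strand is not given in the sources used here.

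ER-associated degradation was led by a ubiquitin ligase and a component of its complex. Syvn1 (chr19:6046576-6053712, plus strand) encodes HRD1, the ubiquitin ligase in the ER membrane, and was at 346, 386, 493 and 369 TPM (398 ± 65.03). Herpud1 (chr8:94386438-94395377, plus strand), a stress-induced component of the HRD1 complex, was at 305, 330.3, 491 and 408 TPM (384 ± 84.1). These 2 did not differ beyond their spread (log2 ratio 0.07 ± 0.17). Both lay far above Sel1l, the adaptor that brings substrates to HRD1, at 40.3 ± 2.17 TPM. The derlins, membrane proteins of the export channel, were ordered Derl3, Derl1 and Derl2. Derl3 was at 115, 117, 110.5 and 121 TPM (116 ± 4.31), Derl1 at 55.7, 51.1, 110.4 and 82.7 TPM (74.96 ± 27.4) and Derl2, the lowest of the group, at 8.45, 10.1, 10.9 and 10.5 TPM (9.98 ± 1.08). Derl1 lay below Derl3 in libraries 1 and 2 and level with it in library 3, with ratios to Derl3 of 0.483, 0.436, 0.999 and 0.684 (a pair chosen after its values were seen). The EDEM genes, which mark glycoproteins for removal by trimming their mannoses, were ordered Edem1 (106 ± 10.6 TPM), Edem2 (55.3 ± 7.25 TPM) and Edem3 (18.6 ± 1.95 TPM).

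The sensors and factors spanned the widest range. Atf4 (chr15:80255184-80257541, plus strand), the factor whose translation rises when PERK phosphorylates eIF2α, was at 356, 410.3, 579 and 483 TPM (457 ± 96.6), and it ranked 144 among tested genes. Xbp1 (chr11:5520659-5525893, plus strand), the factor made active by splicing through IRE1, was at 232, 222, 144 and 207 TPM (201 ± 39.6). Gene counts do not separate its spliced from its unspliced form, and do not show the translation of Atf4 or the cleavage of ATF6. Ddit3 (chr10:127290774-127296288, plus strand), which encodes CHOP, a factor downstream of ATF4 linked to cell death, was at 40.3, 73.1, 112 and 96.4 TPM (80.5 ± 31.3). Of the 3 sensors, Eif2ak3 (chr6:70844515-70905245, plus strand) was the most abundant, at 42.7, 32.9, 76.3 and 47.5 TPM (49.9 ± 18.7). Atf6 was at 21.7, 20.1, 19.4 and 20.9 TPM (20.5 ± 1.03). Ern1, which encodes IRE1, was the lowest of the group, at 3.82, 4.19, 2.49 and 4.23 TPM (3.68 ± 0.817). Trib3, a pseudokinase induced by ATF4 and CHOP, was at 4.02, 2.73, 5.90 and 3.79 TPM (4.11 ± 1.32) and did not differ from Ern1 beyond the spread (log2 ratio of Trib3 to Ern1 0.14 ± 0.79). The log2 ratio of neighbours exceeded its SD for the other 5 of 6 pairs, of which Ddit3 and Eif2ak3 kept their order in 3 of 4 libraries.

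Sequences of the promoters were read because several of these genes are textbook targets of ATF6 and XBP1, which bind ER stress response elements. The windows run from 250 bases before to 50 bases after the RefSeq transcription start (GRCm38.p6), and 37 of the 45 members had one. The first element searched, called ERSE, is CCAAT, 9 bases of any kind and then CCACG. It occurred on either strand in 9 of 37 members (24.3%), against 37 of 27025 genes with a window (0.137%). The second, ERSE-II, is ATTGG, 1 base of any kind and then CCACG, and occurred in 2 of 37 members, against 12 of 27025 genes (0.0444%). The members are themselves counted among the 27025 genes. Because they were chosen as genes of this pathway, several of them known targets, a higher share was set by that choice and is no test. All members with an ERSE had 1 match except Hsp90b1, which had 2. The ERSE matches other than that of Syvn1 are printed below with 10 bases on each side, 5′ to 3′ along the gene, with the element in capitals. Where the capitals begin with CGTGG, the element lies on the opposite strand.
Hspa5, chr2:34772015-34772053, plus strand: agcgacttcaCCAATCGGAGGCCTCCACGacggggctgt
Calr, chr8:84847065-84847103, minus strand: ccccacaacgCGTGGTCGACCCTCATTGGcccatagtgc
Derl3, chr10:75893232-75893270, plus strand: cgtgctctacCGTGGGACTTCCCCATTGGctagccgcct
Hsp90b1, chr10:86705628-86705666, minus strand: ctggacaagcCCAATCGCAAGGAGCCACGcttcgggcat
Hsp90b1, chr10:86705523-86705561, minus strand: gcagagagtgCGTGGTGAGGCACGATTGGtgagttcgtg
Canx, chr11:50325790-50325828, minus strand: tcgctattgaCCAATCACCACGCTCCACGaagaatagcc
Pdia6, chr12:17266481-17266519, plus strand: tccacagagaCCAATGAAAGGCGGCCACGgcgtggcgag
Dnajc3, chr14:118937817-118937855, plus strand: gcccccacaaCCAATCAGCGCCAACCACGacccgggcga
Creld2, chr15:88819510-88819548, plus strand: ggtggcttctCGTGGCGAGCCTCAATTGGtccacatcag

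The ERSE nearest to a start was that of Syvn1, at −44 to −26, and the one of Hspa5 lay at −65 to −47. In Hsp90b1 the matches spanned −212 to −194 and −107 to −89. The other elements lay at −98 to −80 in Pdia6, −105 to −87 in Dnajc3, −126 to −108 in Creld2, −145 to −127 in Canx, −156 to −138 in Derl3 and −162 to −144 in Calr. The ERSE-II of Herpud1 lay at −52 to −42, and that of Dnajb11 just behind the start, at 8 to 18. The annotation used for lengths starts some genes before the RefSeq start, by 120 bases in Hspa5, 65 in Hsp90b1, 44 in Pdia6 and 3 in Calr, so the Hspa5 match lies inside the gene as annotated there. The 250 bases before the start of Syvn1 and of Herpud1, the most abundant genes of the degradation group, show each element in its context.
Syvn1, chr19:6046326-6046575, plus strand, ERSE in capitals: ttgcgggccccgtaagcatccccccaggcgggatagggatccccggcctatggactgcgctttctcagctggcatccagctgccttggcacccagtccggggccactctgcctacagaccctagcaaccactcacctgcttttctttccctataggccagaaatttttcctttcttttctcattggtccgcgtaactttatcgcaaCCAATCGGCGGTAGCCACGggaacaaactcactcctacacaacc
Herpud1, chr8:94386179-94386428, plus strand, ERSE-II in capitals: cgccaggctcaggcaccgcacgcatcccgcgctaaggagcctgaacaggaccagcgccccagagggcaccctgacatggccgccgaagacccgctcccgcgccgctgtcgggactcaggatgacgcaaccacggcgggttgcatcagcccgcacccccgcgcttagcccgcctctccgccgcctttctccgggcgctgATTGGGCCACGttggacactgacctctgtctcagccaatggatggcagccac

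Further motifs were rarer among the members. The element TGACGTGG, called UPRE and bound by XBP1, occurred in 1 of 37 members, Txndc5, against 193 of 27025 genes (0.714%). That match, at −138 to −131, lies inside the gene by the other annotation, which starts Txndc5 910 bases earlier. The element TGATGNAAT, called CARE and bound by ATF4 with its partners, occurred in 0 of 37 members, against 293 genes (1.08%). Both strands were searched. The elements share letters, but no member held matches of more than 1 element, so none overlapped. The 11 members with an ERSE or ERSE-II had a median of their mean levels of 176 TPM (41.0 to 681), and the other 26 with a window had 65.5 TPM (3.10 to 457). Presence of the letters describes these windows only and shows no binding.

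**Figure D2:**
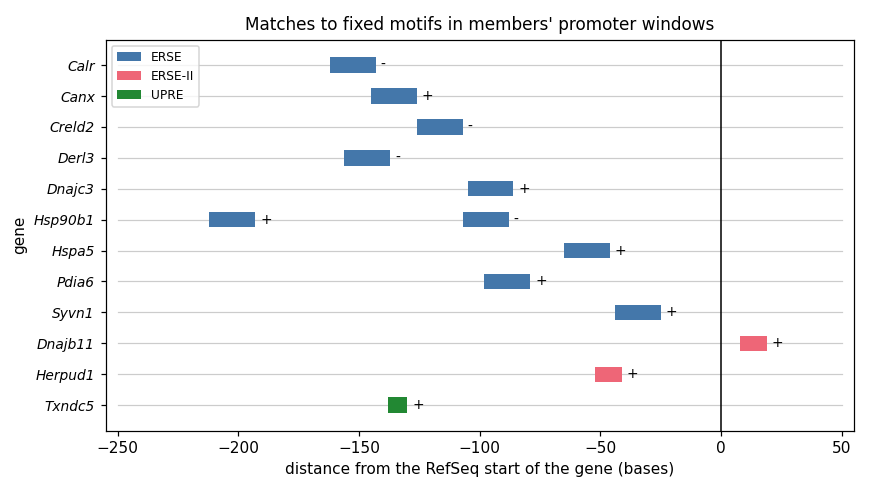
Position of the ERSE, ERSE-II and UPRE letters relative to the RefSeq transcription start in the windows of the 12 members that hold one. Axis in bases, from 250 before to 50 after the start. All matches lie before the start, between −212 and −26, except the one of Dnajb11 at 8 to 18.

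Whether the members varied more between libraries than genes of like abundance was tested with edgeR's quasi-likelihood fit over all 11982 genes. Each gene's spread was set against the trend for its abundance, so a gene that does not pass may still vary. For this and all comparisons between libraries, counts were normalised with TMM factors and are given as normalised CPM. No member passed at an adjusted p of 0.05 (Benjamini-Hochberg), whereas 0.00835% of all tested genes did, which is 1 gene. An unadjusted p under 0.05 was found for 4 of 45 members, against 4.97% of tested genes (595). No member passed with DESeq2's dispersion outliers or with limma-voom either, where 159 and 0 of all tested genes did, and voom gave 4 members and 603 of 11982 genes at an unadjusted p under 0.05. Without library 3, edgeR's fit gave 1 member and 606 of 12241 genes at an unadjusted p under 0.05, and without library 1 it gave 7 members and 600 of 12234 genes. The median coefficient of variation (CV) of the members was 13.8%, near the 15.5% of all tested genes. Without library 3 it was 9.64% for the members and 14.5% for all tested genes.

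The 4 members with the smallest p were Ddit3, Fkbp11, Pdia4 and Xbp1. Ddit3 was at 31.5, 63.2, 75.7 and 71.7 normalised CPM in libraries 1 to 4, a 2.40-fold range (edgeR quasi-likelihood, Benjamini-Hochberg adjusted p = 0.743). Library 1 was low and the other 3 lay close together. Part of Ddit3, 3.97% of its length, overlaps exons of Mars on the opposite strand, which was itself at 71.5 TPM. Fkbp11 was at 11, 15.4, 3.21 and 8.02 normalised CPM, a 4.79-fold range (edgeR adjusted p = 0.783). Its counts were 155, 199, 48 and 117, and the exact Poisson interval (95%, counting error only) of library 3, 35.4 to 63.6 counts, lay below the next lowest, 96.8 to 140.2 counts in library 4. Pdia4 was at 248, 325, 151 and 209 normalised CPM, a 2.16-fold range (edgeR adjusted p = 0.843). Xbp1 was at 344, 364, 184 and 292 normalised CPM, a 1.98-fold range (edgeR adjusted p = 0.952). In these 3 genes library 3 was lowest, and library 2 highest. The adjusted p depended on the setting. With no filter on low counts, where 262 of 31026 genes passed, it was 0.0763 for Fkbp11 and 0.254 for Pdia4 (edgeR). For Ddit3 and Xbp1 it was then 0.28 and 0.372 (edgeR).

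The next 4 by p were Derl1, Eif2ak3, Creld2 and Edem2, all with an edgeR adjusted p of 0.990. Derl1 was at 84.6, 85.9, 145 and 119 normalised CPM, with libraries 3 and 4 above the others. Eif2ak3 was at 118, 100.1, 181 and 124 normalised CPM, with library 3 above the others. Exons of Gm43292 on the opposite strand cover 8.05% of Eif2ak3. Creld2 was at 88.9, 134, 78.4 and 90.95 normalised CPM, with library 2 above the others. Edem2 was at 94.7, 107, 61.6 and 83.1 normalised CPM, with library 3 below the others. At the other end stood 3 genes of the calnexin cycle. Pdia3 was at 496, 492, 509.7 and 485 normalised CPM (CV 2.06%), Canx at 331, 319, 339 and 316 (CV 3.27%) and Calr at 816, 902, 901 and 863 (CV 4.67%). These 3 had the largest p of all members in the main fit, but not under every setting. With library size alone Hyou1 had the largest (edgeR unadjusted p = 0.96), and with no filter on low counts P4hb did (edgeR unadjusted p = 0.992). A large p does not show that Pdia3, Canx and Calr were equal between libraries, but their values spanned at most 1.11-fold.

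**Figure D3:**
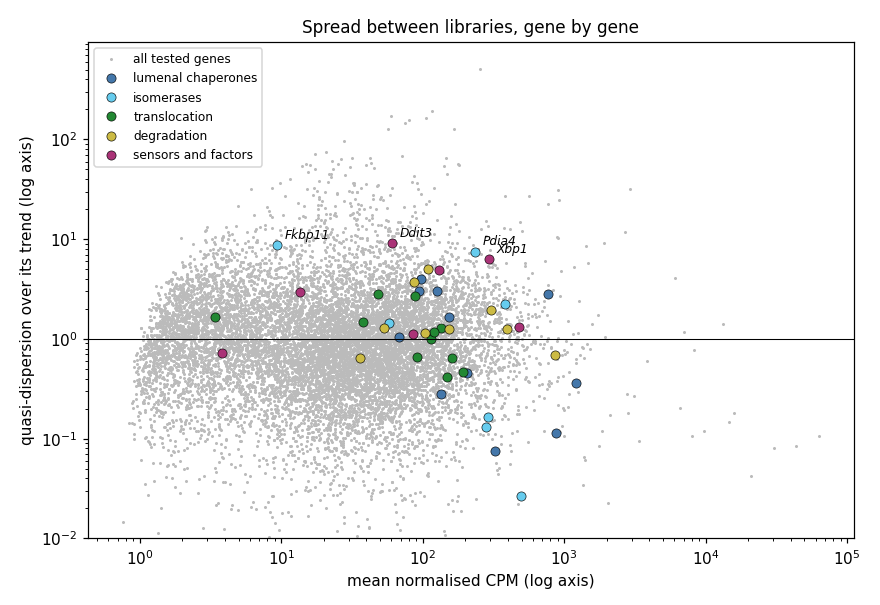
Quasi-dispersion of each gene over the trend for its abundance against mean normalised CPM, both on log axes, for 11982 tested genes (grey) and the 45 members (coloured by role). Ddit3, Fkbp11, Pdia4 and Xbp1, the 4 members at an unadjusted p under 0.05, are named.

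Library 3 was the lowest of the 4 libraries in 30 of 45 members (66.7%), against 26.5% of all tested genes. The share of members lowest in library 1 was 9 of 45 (28.4% of tested genes), in library 2 it was 4 (26.7%), and in library 4 it was 2 (18.4%). Library 2 was the highest in 19 members, against 25.1% of tested genes. Libraries 1, 3 and 4 were highest in 9, 9 and 8 members, against 28.9%, 27.8% and 18.3% of tested genes. The position of library 2 depended on the scaling: it was highest in 12 members with library size alone, and on the TPM scale it was highest in 5 and lowest in 16. The members share their libraries and many move together, so these counts are descriptions of 4 libraries and carry no test. Relative to the mean of the other libraries on the log2 scale, the median member stood at −0.26 in library 3, and 32 of 45 were below 0. For all tested genes the median was 0.01, with 5859 of 11982 below 0. On the TPM scale the count depended on the denominator: the median of all tested genes was itself 0.25 higher in library 3, and 17 members were lowest and 17 highest there, against 11.5% and 53.0% of the 11974 tested genes with counts in every library and a known length. With mitochondrial and immunoglobulin genes out of the denominator, 30 members were again lowest. A scaling factor shifts all genes alike, so the median member stood 0.27 below the median of all genes on every scale (log2, −0.27). In bulk samples, fewer cells of a type and less RNA per cell cannot be told apart.

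**Figure D4:**
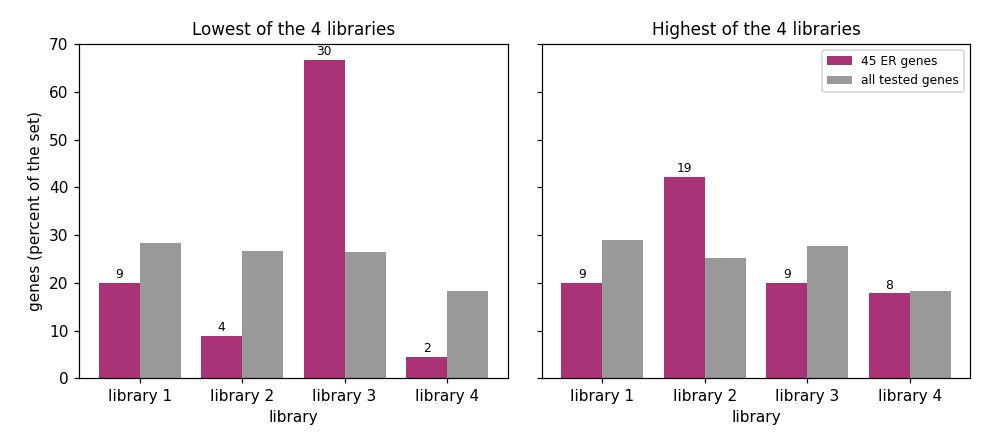
Share of genes that were lowest (left) or highest (right) in each library by normalised CPM, for the 45 members and for 11982 tested genes, with the number of members over the bars. The members' share lowest in library 3 is 66.7%, against 26.5% of tested genes.

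The low position of library 3 was not shared evenly by the roles, a difference given here without a test. It was the lowest library for 10 of 11 translocation genes, all but Ssr1, for 8 of 11 chaperones, 5 of 9 degradation genes, 4 of 7 isomerases and 3 of 7 sensors and factors. On the TPM scale, where the median of all tested genes lies higher in library 3, these counts were 3, 4, 4, 3 and 3. The share of all tested genes lowest in library 3 was 26.5% by normalised CPM and 11.5% on the TPM scale. The sensors and factors split: Xbp1, Ern1 and Atf6 were lowest in library 3, while Atf4, Ddit3, Eif2ak3 and Trib3 were highest there, with the same counts (3 and 4) under all 5 scalings tried. Ern1 was at 14.3, 17.3, 8.01 and 15.01 normalised CPM and Atf6 at 91.7, 93.4, 70.4 and 83.9. Atf4 was at 383, 488, 538 and 495 normalised CPM and Trib3 at 3.90, 2.93, 4.94 and 3.50. The first 3 of these genes are usually assigned to the IRE1 and ATF6 branches and the other 4 to the PERK branch. Other listed stress response genes were mixed on the TPM scale. Library 3 was highest in 8 of 16 of them there, near the 53.0% of tested genes on that scale. Asns and Sesn2 were highest in library 3, whereas Ppp1r15a was highest in library 2, Atf3 in library 4 and Ddit4 in library 1. Chac1 was lowest in library 3, at 5.22, 4.67, 2.38 and 2.89 TPM in libraries 1 to 4. A difference between branches was not tested. Against the mean of the other libraries, the 9 members farthest below in library 3 were Fkbp11 (3.45-fold lower), Ern1 (1.93-fold), Xbp1 (1.81-fold), Sec61g (1.75-fold), Pdia4 (1.70-fold), Spcs1 (1.54-fold), Edem2 (1.53-fold), Hsp90b1 (1.52-fold) and Dnajc3 (1.505-fold). The 6 farthest above were higher there, by 1.596-fold in Eif2ak3, 1.52-fold in Derl1, 1.45-fold in Ddit3, 1.44-fold in Trib3, 1.21-fold in Herpud1 and 1.19-fold in Atf4. None of these genes passed the variation test after adjustment.

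**Figure D5:**
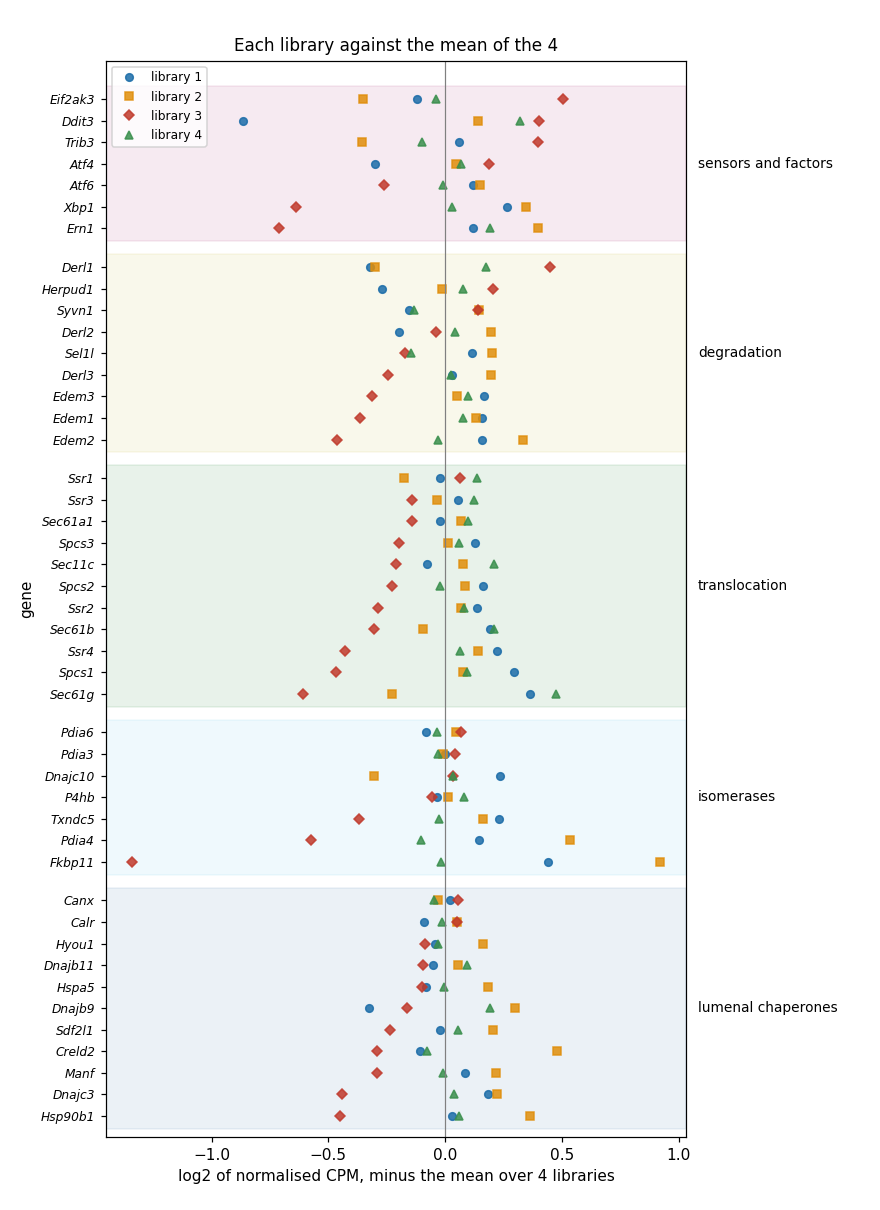
Deviation of each library from the gene's mean on the log2 scale of normalised CPM, for the 45 members in rows by role. In library 3, 10 of 11 translocation genes and 8 of 11 chaperones are at their lowest, against 26.5% of tested genes. Atf4, Ddit3, Eif2ak3 and Trib3 are at their highest there. On the TPM scale 3 of 11 translocation genes are lowest in library 3, against 11.5% of tested genes.

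The sizes of these differences can also be read as ratios within a library, per length. The pairs were chosen after the values were seen, each from genes already known to lie apart in library 3, so its place in them is no further evidence. The ratio of Atf4 to Xbp1 was 1.54, 1.84, 4.03 and 2.33 in libraries 1 to 4. That of Ddit3 to Xbp1 was 0.174, 0.329, 0.781 and 0.465. For the sensors themselves, Eif2ak3 over Ern1 was 11.2, 7.86, 30.7 and 11.2. Library 3 was highest in all 3 ratios. Among chaperones and isomerases, Hsp90b1 over Hspa5 was 0.705, 0.740, 0.512 and 0.683, and Pdia4 over Pdia3 was 0.655, 0.864, 0.387 and 0.564. Library 3 was lowest in both.

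Markers of several other cell types were low in library 3 as well. The summed normalised CPM of 7 tested plasma cell markers other than Xbp1 was 2420, 2528, 1206 and 2227 in libraries 1 to 4, and 6 of the 7 were lowest in library 3. Among them Jchain was at 1810.1, 1737, 626 and 1564 normalised CPM, Mzb1 at 64.99, 60.95, 31.7 and 52.1, Sdc1 at 30.4, 27.5, 10.3 and 25.3 and Prdm1 at 28.03, 36.03, 14.96 and 25.9. Slamf7 at 136, 108, 87.01 and 101.99 and Tnfrsf13b at 147, 153, 121 and 124 were lowest in library 3 by a smaller margin, and on the TPM scale they were not lowest there. Irf4 went another way, at 203, 405, 315 and 333 normalised CPM, with library 1 lowest. None of these was at 0 in any library. The sum of 8 T cell markers was 304, 151, 99.96 and 242 normalised CPM, and 8 of 8 were lowest in library 3. The sum of 8 genes of dissociation stress, such as Fos and Junb, was 3998, 7472, 1844 and 3351, with 8 of 8 lowest in library 3. Library 2 had the largest sum of these genes. It was highest in 19 members by normalised CPM and in 5 on the TPM scale. Macrophage markers summed to 252, 191, 165 and 202, neutrophil markers to 104, 66.04, 44.4 and 124 and erythroid markers to 35.4, 37.3, 28.3 and 85.5. The 3 tested plasmacytoid dendritic markers summed to 238, 253, 284 and 263, highest in library 3. Only Tcf4 was highest there, and the other 2, Bst2 and Ccr9, were lowest there. The sum of B cell markers was 6573, 7152, 6960 and 5911, and that of germinal centre markers 1528, 936, 1179 and 982, with library 3 lowest in none of these 14 genes. The part of plasma cells, other cells, dissociation or sex in the low position of library 3 was not tested.

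Most of the 21 genes listed as cytosolic chaperones, folding machinery outside the ER, did not share the low position. The list leaves out the cytosolic chaperones Hspa1a and Hspa1b, which were counted above among genes of dissociation stress. Both were lowest in library 3, at 42.1, 21.5, 4.86 and 28.4 TPM and at 62.1, 30.4, 9.43 and 48.6 TPM in libraries 1 to 4. The 21 listed genes, of which Hspd1 and Hspe1 encode mitochondrial chaperones, were led by Hsp90ab1 at 2142 TPM. Their median was 6.95 ± 0.18 on the log2(TPM + 1) scale, close to the 7.10 ± 0.07 of the lumenal chaperones. Library 3 was highest in 13 of 21 and lowest in 3 by normalised CPM, against 27.8% and 26.5% of tested genes. On the TPM scale it was highest in 16 and lowest in 1, against 53.0% and 11.5% of tested genes. The genes highest there included every listed Cct gene, Tcp1, Hspd1 and Hspe1, so related genes carry much of this count. Those not highest there were Hspa8, Hsp90aa1, Hsph1, Dnaja1 and Dnajb1. Of these, Dnajb1 was lowest in library 3, at 118, 90.5, 81.8 and 131 TPM in libraries 1 to 4, and Hspa8 was at 217, 229, 219 and 256 TPM. The median gene of the list stood at 0.16 on the log2 scale above the mean of the other libraries. None of the 21 passed the variation test after adjustment, and 0 had an unadjusted p under 0.05 (edgeR). For Hspa1a and Hspa1b the unadjusted p was 0.000953 and 0.000925, and the adjusted p 0.238 and 0.236 (edgeR). The median lumenal chaperone stood at −0.22 in library 3 against the mean of the other libraries. This difference between the lists is a description of 1 library against 3.

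Further genes of the pathway, 87 in 6 lists, were measured beside the members. Of these, 83 passed the filter on low counts and 82 exceeded 1 TPM in every library. None passed the variation test after adjustment in edgeR's quasi-likelihood fit, and 4 of 83 (Mzb1, Sec24d, Atf3 and Creb3l2) had an unadjusted p under 0.05, a share near the 4.97% of all tested genes. Oligosaccharyltransferase and glycan processing genes (13 of 14 tested) were led by Stt3b and Ddost, a catalytic and an accessory subunit of the transferase, at 226 and 181 TPM, with Uggt2 lowest at 0.144 TPM. Targeting genes (15 of 15 tested) were led by Bcap31, an ER membrane sorting protein, at 154 TPM and Tram1, a partner of the channel, at 102 TPM. Srp54a was lowest at 0.803 TPM, whereas Srp68 and Srp72 stood at 78.8 and 65.6 TPM. The low value of Srp54a is uncertain. Stretches shared with other genes were examined for the members only, and how reads with several matches were counted is not stated. Other folding genes (13 of 14) were led by Erp44, which retains unassembled proteins such as IgM subunits, at 159 TPM, and by Mzb1, a BiP co-factor of B cells, at 95.4 TPM, with Pdia5 lowest at 0.559 TPM.

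The remaining lists cover export, degradation and the wider stress response. COPII export genes (14 of 15) were led by Sar1b, the GTPase that starts the coat, at 88.5 TPM and by Kdelr1, the receptor that returns ER residents, at 80.5 TPM, with Kdelr3 lowest at 0.776 TPM. Other degradation genes (12 of 12) were led by the ubiquitin-conjugating enzyme Ube2j1 at 152 TPM and the lectin Os9 at 144 TPM, with Ngly1 lowest at 6.39 TPM. Stress response genes (16 of 17) were led by Ppp1r15a, which restores translation by reversing eIF2α phosphorylation, at 448 TPM and by Tmbim6 at 141 TPM, and Ern2, the IRE1 of mucosal epithelium, had 0 counts in 4 of 4 libraries, which allows up to 0.218 CPM. Library 3 was lowest in 9 of 14 COPII genes, 8 of 13 folding genes, 7 of 15 targeting genes, 6 of 13 glycan genes, 3 of 12 degradation genes and 3 of 16 stress response genes, against 26.5% of all tested genes. On the TPM scale the same counts were 6, 4, 3, 1, 1 and 2, against 11.5% of tested genes on that scale.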

How the data were processed

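Poly(A) RNA of B220+ YFP+ cells sorted from spleen was sequenced as single-end reads of 50 bases on DNBseq, per the labels. FastQC, STAR 2.5.2b and featureCounts 1.6.0 with the mm10 build are named in the submitters' processing notes. The annotation release, strand setting and treatment of reads with several matches are not given in the sources used here. Each library has 1 deposited table of raw counts (13777954 to 14629025 in all), and all count columns were used. Replicate numbers follow accession order.

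Lengths and positions came from GENCODE M21 (GRCm38, the same assembly as mm10). Of 37646 identifiers 37536 matched, 36825 of them with their version, and 110 had no TPM. TPM, from counts per union-of-exons length, served to compare genes, and TMM-normalised CPM to compare libraries. The test of variation used R 4.3.3 and edgeR 4.0.16 (genes kept by filterByExpr, TMM factors, intercept-only glmQLFit with legacy = FALSE, upper tail of F, Benjamini-Hochberg over 11982 genes, threshold 0.05), checked on simulated data. P-values measure only the spread between these libraries. Alternatives were DESeq2 1.42.0, limma 3.58.1, other scalings, filters, pseudocounts and summaries, and leaving out each library. The TPM scalings and the pairwise comparison of library 3 were chosen after seeing the data. Promoters are RefSeq windows (GRCm38.p6). Shared stretches are identical 50-base runs in GENCODE transcripts of other genes, on either strand.

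The 45 members, their role groups, the other lists and the markers were chosen with earlier results of these data known. Values in every library are given by rule: the 3 highest and the lowest of each role group, the 8 smallest and 3 largest p, all subunits of the 3 complexes and all sensors. For other pathway lists the rule names the 2 highest, the lowest and any gene that passed. Mzb1, Sec24d, Atf3 and Creb3l2 were named after their p was seen. Protein sequences were not used here.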

Additional observations from a re-analysis of the deposited data

How the results depend on the processing

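Of 55 recomputed values of the main results, 48 kept within the limits set for each. With mitochondrial and immunoglobulin genes out of the denominator, the median member stood at 7.54 in place of 6.43 on the log2(TPM + 1) scale, and the members held 1.34% in place of 1.01% of counts. With CPM in place of TPM, chaperones exceeded sensors and factors by 0.82 in place of 1.52. With no filter on low counts, 7 members (and 1466 of 31026 genes) had an unadjusted p under 0.05 in place of 4, and leaving out 1 library at a time gave 1 (without library 3) to 7 (without library 1). The number lowest in library 3 was 17 on the TPM scale in place of 30, where the share of tested genes was 11.5% in place of 26.5%. The count of members passing the adjusted threshold was 0 in the 10 alternatives run, in which 0 (limma-voom) to 262 (no filter) of all genes passed. Library 2 was highest in 19 members, but in 12 with library size alone and 5 on the TPM scale, where it was lowest in 16 in place of 4. With counts in place of counts per length, 7 log2 ratios changed sign: Sec61b over Sec61a1 to −1.99, Ssr2 over Ssr1 to −0.25, Ssr4 over Ssr1 to −0.86, Spcs1, Spcs2 and Spcs3 over Sec11c to −1.34, −0.055 and −0.39, and Derl1 over Derl3 to 0.041. No paired analysis was possible because the labels give 1 group. Low counts limit Sec61g, Trib3, Ern1 and Fkbp11 most.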
